A study of Mus musculus with 10 samples.

Results

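The 9 genes described here carry the transforming growth factor beta (TGF-beta) signal: the ligands Tgfb1, Tgfb2 and Tgfb3, the receptors Tgfbr1, Tgfbr2 and Tgfbr3, the intracellular proteins Smad3 and Smad7, and the target Ctgf. They were chosen by gene name, as the rows with these symbols, from 33120 genes with an annotated exon length among 51826 genes listed. All 9 were read in every library and all 9 passed the filter on low counts in every comparison of exon reads. RNA was sequenced from whole inguinal white adipose tissue (iWAT) of 10 wild-type male C57BL/6 mice, after depletion of ribosomal RNA. F0-CD mice (n = 2) ate a control diet (CD) and F0-LPD mice (n = 2) a low-protein diet (LPD) from weaning, and both were 10 to 12 weeks old. F1-CD mice (n = 3) were sons of CD-fed fathers and F1-LPD mice (n = 3) sons of LPD-fed fathers. All F1 mice were 5 weeks old, and they and their mothers had eaten the CD, so that by design the F1 groups differed in the diet of the father. The comparison of the F1 groups asks what the father's diet changed in the offspring, and that of the F0 groups what the diet changed in the animals that ate it. The tissue was not sorted, and the F1 mice of a group had different mothers, while which of them shared a father is not given in the sources used here.

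TGF-beta ligands are secreted as latent dimers that bind the extracellular matrix and must be released before they act. An active ligand joins the type II receptor (Tgfbr2) to the type I receptor (Tgfbr1), often handed over by the co-receptor betaglycan (Tgfbr3), and the type I receptor then phosphorylates Smad2 and Smad3, which enter the nucleus. Smad7 is induced by the pathway and blocks the type I receptor, Ctgf (connective tissue growth factor) is a matrix-associated target, and in adipose tissue the pathway is known for matrix deposition and for holding back the differentiation of adipocyte precursors.

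The ligands are close relatives, which bears on whether short reads can tell them apart. The first 96 bases of the coding sequence of the mature, receptor-binding part of Tgfb1 and Tgfb3 are shown 5′ to 3′ from GENCODE vM21 transcripts. Capitals mark the 73 bases that are the same in both.
Tgfb1: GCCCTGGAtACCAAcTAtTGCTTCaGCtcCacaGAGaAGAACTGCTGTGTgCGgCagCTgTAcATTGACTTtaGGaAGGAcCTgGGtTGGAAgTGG
Tgfb3: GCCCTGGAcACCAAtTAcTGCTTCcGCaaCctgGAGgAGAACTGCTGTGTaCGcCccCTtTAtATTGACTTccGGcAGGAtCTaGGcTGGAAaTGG
Over the whole mature coding sequence of 336 bases, Tgfb1 and Tgfb3 had 73.5% of bases identical and a longest identical run of 15 bases. No stretch of 36 bases, the length of one read, was shared between their full coding sequences. Reads from coding sequence could therefore be told apart between these ligands.

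The promoters of the most and the least abundant ligand in this tissue are shown next, 250 bases before to 50 after the start of the gene, from RefSeq on GRCm38.p6 (mm10). That of Tgfb1 lies at chr7:25686752-25687051 on the plus strand and that of Tgfb2 at chr1:186705940-186706239 on the minus strand. Capitals mark the letters searched, on both strands. The GC box, GGGCGG, was found in 35.7% of 32851 mouse promoters of this length. The TATA box, TATAAA, was found in 13.6%. The core of a Smad binding element, CAGAC, was found in 49.6%. A site of the TEAD factors, GGAATG, was found in 14.7%.
Tgfb1: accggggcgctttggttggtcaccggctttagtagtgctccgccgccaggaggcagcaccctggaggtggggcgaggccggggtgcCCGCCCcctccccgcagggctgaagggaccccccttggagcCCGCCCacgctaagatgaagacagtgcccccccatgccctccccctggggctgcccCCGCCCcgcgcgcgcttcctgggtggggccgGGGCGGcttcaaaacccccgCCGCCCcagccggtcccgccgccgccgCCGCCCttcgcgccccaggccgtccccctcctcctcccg
Tgfb2: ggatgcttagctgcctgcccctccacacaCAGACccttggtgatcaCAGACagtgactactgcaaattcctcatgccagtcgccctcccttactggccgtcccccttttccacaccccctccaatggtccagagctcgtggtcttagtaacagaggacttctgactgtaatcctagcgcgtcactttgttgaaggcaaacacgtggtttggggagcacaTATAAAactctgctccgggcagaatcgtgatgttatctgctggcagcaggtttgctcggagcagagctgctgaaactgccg
The Tgfb1 window held 6 GC boxes and none of the other letters. The Tgfb2 window held no GC box, 1 TATA box and 2 copies of CAGAC. These matches describe the windows and were not tested as sites.

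Each library held between 6351075 and 10044546 exon reads, so that 3 reads stood for 0.299 to 0.472 per 1000000 exon reads before scaling. Levels in CPM are reads per 1000000 exon reads, with library sizes scaled by TMM. The 9 adipocyte marker genes summed to between 18013 and 25153 CPM in all libraries. The F1-LPD libraries stood apart in 2 measures of RNA content: the share of reads on protein-coding genes that fell in introns was 40.7 to 48.4% in F1-LPD and 36.0 to 37.5% in F1-CD, and mitochondrial ribosomal RNA took 13.5 to 18.2% against 9.29 to 10.5%. In F0 the summed level of 10 skeletal muscle markers was 1535 to 2349 CPM on the CD and 752 to 1039 CPM on the LPD, and in F1 it was at most 180 CPM. A level in whole tissue cannot tell fewer cells of a type from less RNA per cell. The sources used here do not say whether the F0 mice of a group were littermates, and the p-values measure the spread between the mice sequenced.

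Levels of the 9 genes can be compared with each other only per exon length, as the deposited RPKM (reads per kilobase and 1000000 reads). In F1-CD the receptors stood highest, with Tgfbr2 at 20.1 ± 0.305 RPKM (SD, n = 3) and Tgfbr3 at 16.9 ± 2.57, followed by Tgfb1 at 12.0 ± 0.833. Smad7 (4.28 ± 0.65), Tgfbr1 (3.64 ± 0.284) and Smad3 (3.63 ± 0.232) came next and overlapped from neighbour to neighbour. Tgfb3 (2.34 ± 0.103), Ctgf (1.11 ± 0.378) and Tgfb2 (0.357 ± 0.0732) were lowest and did not overlap. Tgfb1 was thus the main ligand transcript and Tgfbr2 and Tgfbr3 the main receptor transcripts of this tissue.

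The order changed with the group at the top and in the middle. In F1-LPD Tgfbr2 (14.3 ± 1.89 RPKM) and Tgfbr3 (14.2 ± 2.03) overlapped, and in both F0 groups Tgfbr3 was first, at 26.3 ± 4.25 RPKM in F0-CD and 24.8 ± 1.98 in F0-LPD (n = 2 each), above Tgfbr2 at 19.2 ± 1.37 and 16.8 ± 0.834. Tgfb1 was the third in all 4 groups, and Ctgf and Tgfb2 held the 2 lowest places in all 4. Only in F1-LPD did the mice of these last 2 genes overlap, at 0.607 ± 0.233 and 0.309 ± 0.106 RPKM. In F0-CD, Smad7 had moved from the place above Tgfb3 that it held in F1 to the place below it, at 3.23 ± 0.0905 against 3.68 ± 0.265 RPKM.

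**Figure D1:**
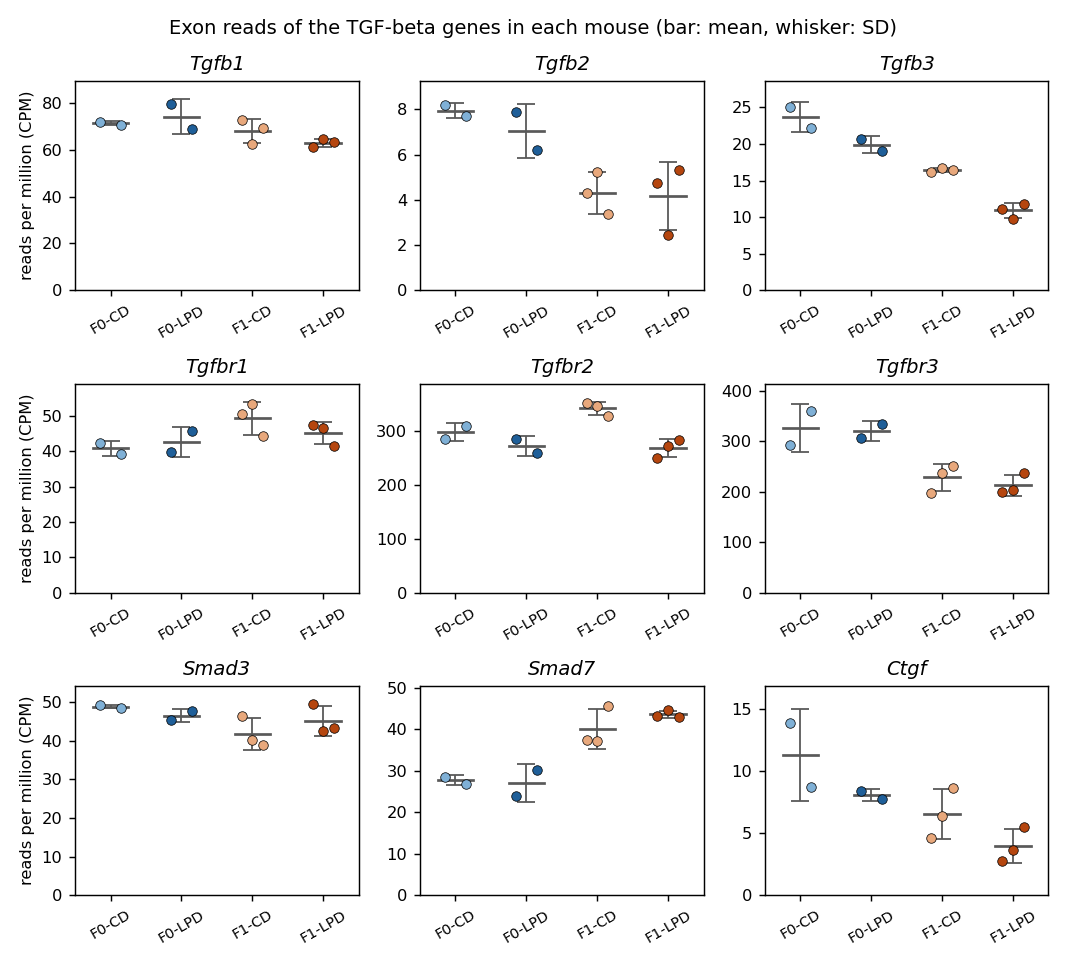
Exon reads (y axis, CPM, from 0) of the 9 TGF-beta genes in each of 10 mice (points), by group (x axis), with the mean (bar) and SD (whisker). In F1, the LPD points of Tgfb3 and Tgfbr2 lie below all CD points, while Tgfb1, Tgfbr1, Tgfbr3, Smad3 and Smad7 overlap.

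None of the 9 genes passed an adjusted p of 0.05 between the sons of LPD-fed and of CD-fed fathers, where 1.17% of 14049 genes tested did (edgeR quasi-likelihood test, Benjamini-Hochberg adjusted). The lowest adjusted p-values belonged to Tgfb3 (0.0862) and Tgfbr2 (0.0871), whose levels were lower in every F1-LPD mouse than in every F1-CD mouse. These were the 2 of 9 genes whose F1 groups did not overlap, beside 20.1% of all genes tested, which is close to the same share. The median of the 9 log2 differences was -0.10 and that of all genes was 0.01. Both genes passed under the likelihood ratio test, without the filter on low counts and with all 4 groups in 1 fit, and Tgfbr2 also with DESeq2, and over 12 alternatives the adjusted p ran from 0.0194 to 0.585 for Tgfb3 and from 0.0264 to 0.724 for Tgfbr2.

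Among the ligands, Tgfb3 (chr12:86056745-86079041) was read at 16.2, 16.7 and 16.4 CPM in F1-CD and at 11.2, 9.76 and 11.8 CPM in F1-LPD. The F1-LPD mice were below all F1-CD mice, and the fitted difference was -0.58 (log2, SE 0.15, 95% interval -0.90 to -0.26). Of its exon reads 68.0% matched uniquely. Tgfb3 shares 257 exonic bases with Gm48008 and 163 with Gm37804, both on the opposite strand. Gm37804 had 0 to 3 reads a library. No count of Gm48008 was available, so that the count of Tgfb3 carries this uncertainty. Ttll5, also on the opposite strand, overlaps Tgfb3 without shared exonic bases and had 680 to 990 reads a library over its own length. The 10 to 54 intron reads of Tgfb3 a library may hold some of these. Tgfb1 (chr7:25687002-25705077) ranged from 62.5 to 72.6 CPM in F1-CD and from 61.1 to 64.7 in F1-LPD, which overlapped, with a difference of -0.10 (interval -0.30 to 0.10). Tgfb2 (chr1:186622792-186705989) rested on 18 to 45 reads a library in F1 (18 to 77 over all 10 libraries), and its difference of -0.05 had an interval of -0.79 to 0.69, too wide to bound a change.

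Tgfbr2 (chr9:116084293-116175360), the receptor that binds the ligand first, was read at 351, 347 and 329 CPM in F1-CD and at 251, 273 and 284 CPM in F1-LPD. Its groups did not overlap, and the fitted difference was -0.34 (SE 0.09, interval -0.53 to -0.15). When the share of reads in exons entered the fit as a covariate, the difference of Tgfbr2 was -0.19 (adjusted p = 0.724), while that of Tgfb3 was -0.59 (adjusted p = 0.585). This share was 62.5 to 64.0% in F1-CD and 51.6 to 59.3% in F1-LPD, without overlap. The fit can therefore hardly separate it from the father's diet, and over all genes the calls went from 164 to 11. Tgfbr1 (chr4:47353222-47414931), the signalling type I receptor, lay between 41.6 and 53.2 CPM over both F1 groups, with an interval of -0.35 to 0.11. Tgfbr3 (chr5:107106570-107289629) lay between 198 and 251 CPM, with an interval of -0.33 to 0.14. For these receptors a change past 1.5-fold in either direction lies outside the interval.

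Smad3 (chr9:63646767-63757994), the transducer, and Smad7, its antagonist, overlapped between the F1 groups. Smad3 lay between 38.8 and 49.6 CPM and Smad7 between 37.2 and 45.6 CPM, and their differences were 0.12 (interval -0.12 to 0.36) and 0.14 (interval -0.10 to 0.37). On the deposited RPKM scale both differences turned to slightly below 0. Ctgf (chr10:24595442-24598683) was read at 4.59, 6.37 and 8.60 CPM in F1-CD and at 2.76, 3.66 and 5.45 CPM in F1-LPD. The mice overlapped, and the difference was -0.71 (SE 0.33, interval -1.42 to 0.00, adjusted p = 0.327). It was -0.07 with the exon share as a covariate, under the limit given above. Ctgf rested on 18 to 64 reads a library in F1 and on 18 to 124 over all 10 libraries, 70.7% of the latter unique. It shares 665 exonic bases with Gm15270 on the opposite strand, which had 23 to 50 reads a library, so its count may hold some of these.

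Macrophage markers were lower in the same F1-LPD mice: the 8 genes summed to 468 to 589 CPM against 714 to 868 in F1-CD, none of the 8 was at 0, and 4 were called lower. Endothelial markers summed to 532 to 662 CPM against 608 to 828, with 8 of 8 differences below 0 and none called, and fibroblast and progenitor markers to 776 to 998 against 909 to 1077. Lymphocyte markers went the other way, at 405 to 541 CPM against 361 to 436, with 8 of 8 differences above 0 and none called. Smooth muscle and pericyte markers summed to 489 to 608 CPM against 513 to 603 (4 of 6 below 0, none called). Of 9 adipocyte markers 6 were above 0, and none was called. The part of these marker lists in the differences of Tgfb3, Tgfbr2 and Ctgf, none of which passed, was not tested.

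In the F0 males none of the 9 genes passed either, where 2.5% of 14581 genes did. The differences ran from -0.47 for Ctgf to 0.06 for Tgfbr1, with a median of -0.07 beside 0.000352 for all genes. The F0 mice did not overlap for 4 of 9 genes (Tgfb3, Tgfbr2, Smad3 and Ctgf, all lower on the LPD), beside 46.5% of all genes tested, which is close to the same share. Tgfb3 was read at 25.1 and 22.2 CPM on the CD and at 20.7 and 19.1 CPM on the LPD, a difference of -0.24 (interval -0.54 to 0.05). Ctgf was read at 13.9 and 8.69 CPM on the CD and at 8.41 and 7.72 CPM on the LPD, and 1 CD mouse alone stood high.

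The other F0 differences were small and their intervals narrow. Tgfb1 differed by 0.06 (interval -0.16 to 0.28), Tgfbr1 by 0.06 (-0.17 to 0.30), Tgfbr2 by -0.13 (-0.36 to 0.10), Tgfbr3 by -0.03 (-0.31 to 0.25), Smad3 by -0.07 (-0.27 to 0.13) and Smad7 by -0.04 (-0.34 to 0.27). In F0 8 of 9 intervals, all but that of Ctgf, lay within 1 log2 unit of 0, and so did 8 of 9 in F1. Tgfb2 differed by -0.16 (-0.64 to 0.31).

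The diet effect in F1 less that in F0, tested as an interaction over all 10 libraries, passed for none of the 9 genes, where 1.25% of 15111 genes passed. The interaction ran from -0.34 for Tgfb3 (interval -0.75 to 0.06, adjusted p = 0.48) to 0.18 for Smad3. The F1 differences of Tgfb3 and Tgfbr2, which had not passed within F1, were therefore not shown to be particular to the offspring.

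**Figure D2:**
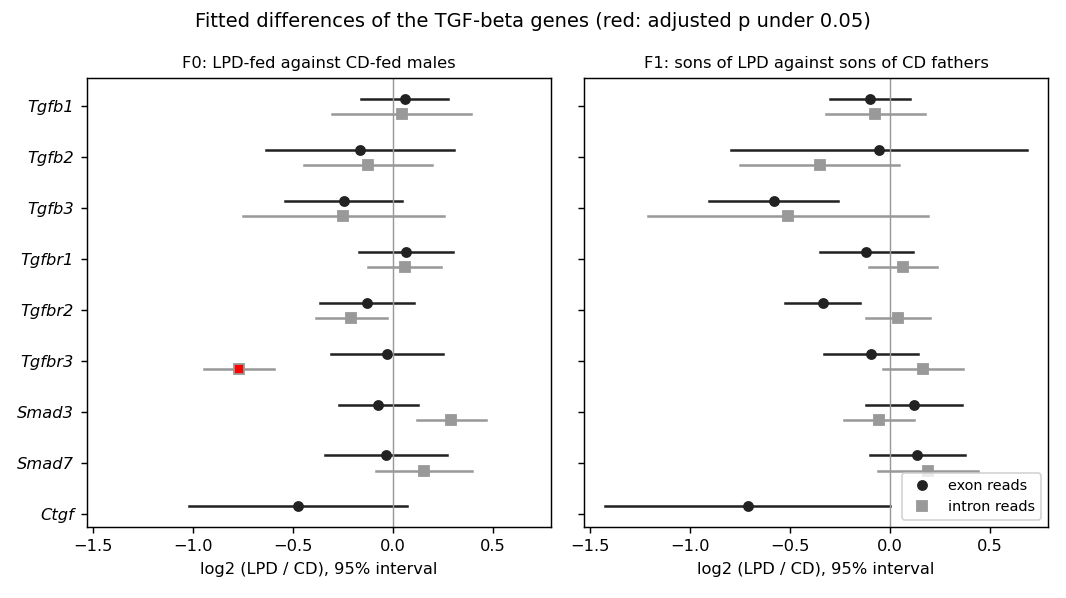
Fitted log2 ratio of LPD to CD (x axis) with its 95% interval for each gene (y axis), in F0 (left) and F1 (right), from exon reads (circles) and intron reads (squares). The intron reads of Tgfbr3 in F0, at -0.77, are the value with an adjusted p under 0.05, and the exon intervals of Tgfb3 and Tgfbr2 in F1 lie below 0.

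Libraries depleted of ribosomal RNA also hold unspliced transcripts, so intron reads give another readout of each gene. Intron reads of 1 of the 8 genes with enough of them passed the test in F0, beside 3.48% of genes, and none in F1, beside 0.424%. Ctgf had 0 to 3 intron reads a library and was not tested. The gene that passed was Tgfbr3. Its introns were read at 852 and 896 CPM (here per 1000000 intron reads) in F0-CD and at 491 and 530 CPM in F0-LPD, while its exons were read at 293 and 361 CPM in F0-CD and at 306 and 334 CPM in F0-LPD. The intron groups were far apart and the exon groups overlapped.

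The fitted difference of Tgfbr3 introns was -0.77 (SE 0.08, interval -0.94 to -0.59, adjusted p = 0.000856), against -0.03 for its exons, and it passed in 4 of 4 fits without 1 mouse. The log2 ratio of exon to intron reads of Tgfbr3 was -0.83 ± 0.21 in F0-CD and -0.05 ± 0.05 in F0-LPD (SD, n = 2 each), and the groups did not overlap (two-sided exact permutation p = 0.333, the smallest that 2 against 2 allows). Of the other members, Smad3 did not overlap either, with a lower ratio on the LPD, and the share over all genes was not counted. The 4 annotated genes that overlap Tgfbr3 had 0 reads in every library. In F1 its introns were read at 442 to 447 CPM in F1-CD and at 431 to 550 in F1-LPD, near the F0-LPD level, and the F0-CD mice were the ones that stood apart. Over all 10 libraries, the interaction on intron reads, a test added after the data were seen, was 0.94 for Tgfbr3 (adjusted p = 0.0034).

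Smad3 introns went the other way in F0, at 178 and 180 CPM on the CD and 212 and 225 CPM on the LPD, a difference of 0.29 (adjusted p = 0.0851) that did not pass. For Tgfbr2 in F1, introns were read at 499 to 539 CPM in F1-CD and at 524 to 547 in F1-LPD, a difference of 0.04 (interval -0.12 to 0.20) beside -0.34 for exons. Its log2 exon to intron ratio was 0.04 ± 0.03 in F1-CD and -0.43 ± 0.23 in F1-LPD without overlap (two-sided exact permutation p = 0.1, the smallest that 3 against 3 allows). The higher intron share of the F1-LPD libraries, given above, moves with the ratio of Tgfbr2, and its part was not tested.

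**Figure D3:**
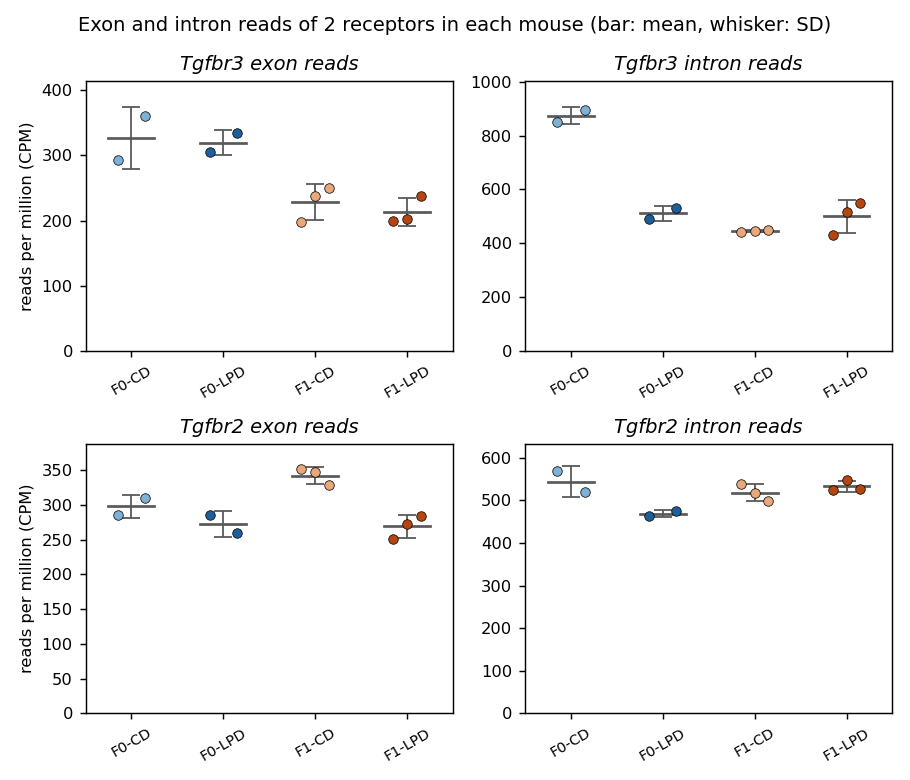
Exon reads (left) and intron reads (right) in CPM, per 1000000 reads of the same kind, (y axis, from 0) for Tgfbr3 (top) and Tgfbr2 (bottom) in each mouse (points), by group, with mean and SD. Intron reads of Tgfbr3 are at 852 and 896 CPM in F0-CD and between 431 and 550 CPM in all other mice.

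Between the generations on the CD, 3 of the 9 genes passed, beside 18.9% of 15111 genes. Smad7 was higher in F1-CD (37.4, 37.2 and 45.6 CPM) than in F0-CD (28.5 and 26.9 CPM), by 0.53 (SE 0.13, adjusted p = 0.0112). Tgfbr3 was lower in F1-CD (198, 237 and 251 CPM) than in F0-CD (293 and 361 CPM), by -0.52 (SE 0.12, adjusted p = 0.0118), and so was Tgfb3, by -0.52 (SE 0.13, adjusted p = 0.012). The groups did not overlap for any of these 3 genes, which the test had picked on the same reads. The share of such genes over all genes was not counted for this comparison. Thus the inhibitor was higher and the co-receptor and 1 ligand lower in the younger mice.

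Tgfb2 (-0.87, adjusted p = 0.0523) and Ctgf (-0.79, adjusted p = 0.0778) had larger differences that did not pass. Tgfb1 was within -0.27 to 0.13 of no difference. Intron reads, again a test added after the data were seen, gave -0.97 for Tgfbr3 (adjusted p = 1.6e-05) and 0.64 for Smad7 (adjusted p = 0.00384), the same directions as exon reads, while Smad3 introns were higher by 0.44 (adjusted p = 0.00273) and its exons differed by -0.23 (adjusted p = 0.154). Leaving out F0-CD replicate 1 ended the calls of Smad7 and Tgfb3, and leaving out F0-CD replicate 2 those of Smad7 and Tgfbr3. The call of Tgfb3 was also lost on uniquely matching exon reads, where its difference was -0.54, and on intron reads, where it was -0.49, and its adjusted p ranged from 0.00251 to 0.272 over 9 alternatives. Generation, age and parental history cannot be told apart here, and the muscle markers, 1535 to 2349 CPM in F0-CD and 92.7 to 180 in F1-CD, moved with generation too.

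Outside the 9 genes, 100 pathway genes were examined in 7 lists: proteins of latency and activation, receptor partners, other Smad proteins, inhibitors, targets, relatives of Ctgf in the CCN family, and the BMP and activin branch. In F1, 86 were tested, 5 fell and none rose, beside 1.02% of all genes that fell and 0.142% that rose. In F0, 93 were tested, 8 rose and 4 fell, beside 1.18% and 1.32%. No gene of the lists passed in both generations.

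Of 23 targets tested in F1, 3 fell, none rose, 18 had differences below 0 and the median was -0.37 (0.01 over all genes). Fn1, which encodes the matrix protein fibronectin, was read at 1088, 1227 and 996 CPM in F1-CD and at 523, 627 and 736 CPM in F1-LPD and fell by 0.80 (log2, SE 0.13, adjusted p = 0.0196). Acta2, the actin of smooth muscle and myofibroblasts, was read at 34.1, 37.8 and 32.5 CPM against 17.6, 21.8 and 22.9 CPM and fell by 0.74 (SE 0.13, adjusted p = 0.0276). The type I collagen chain Col1a2 was read at 5044, 5980 and 3461 CPM against 2326, 2892 and 2647 CPM and fell by 0.87 (SE 0.18, adjusted p = 0.0466). The mice of these 3 genes, picked by the test on the same reads, did not overlap, and neither did those of 20.1% of all genes tested. Col1a1, the partner chain of Col1a2, had the largest difference of the list, -0.96 (SE 0.21), with an adjusted p of 0.0512. On intron reads 16 of 19 targets tested in F1 were below 0, with a median of -0.55 (-0.00234 over all genes). Introns of 2 targets passed, Fn1 (-0.76, adjusted p = 0.0348) and Col1a1 (-1.28, adjusted p = 0.0485), beside 0.424% of all genes. Those of Col1a2 (-0.58, adjusted p = 0.234) and Acta2 (-0.26, adjusted p = 0.641) did not.

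In the other lists of F1, Mmp14, a membrane-bound protease that cleaves matrix, was read at 88.0, 96.2 and 63.0 CPM against 53.4, 49.5 and 49.7 CPM and fell by 0.69 (adjusted p = 0.0448), the 1 of 14 latency and activation genes that passed. Wisp2, a CCN family protein secreted by adipose precursor cells, was read at 10.9, 11.0 and 7.80 CPM in F1-CD and at 1.99, 2.17 and 2.49 CPM in F1-LPD. It fell by 2.14 (SE 0.26, adjusted p = 0.0059), to 0.226 of the F1-CD level, on 58 to 95 reads a library in F1-CD and 13 to 16 in F1-LPD. None of 9 receptor partners, 5 Smad proteins, 10 inhibitors and 22 BMP and activin genes passed, and the largest differences among them were Acvrl1 (-0.48), Smad5 (0.26), Trim33 (0.34) and Fst (-0.59).

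Wisp2 kept its call in 6 of 6 fits without 1 mouse, Fn1 in 3, Acta2 in 2, and Col1a2 and Mmp14 in 1. The F1 count of 5 lower genes was 1 without F1-CD replicate 1, F1-CD replicate 2 or F1-LPD replicate 2, 2 without F1-LPD replicate 1, and 11 without F1-CD replicate 3, whose collagen levels were the lowest of its group. With the exon share as a covariate, which that fit can hardly separate from the father's diet, the count was 0. The macrophage and intron-share differences given above run along the same groups, and so do epithelial markers, which summed to 11.3 to 15.1 CPM in F1-CD and 1.68 to 4.88 in F1-LPD, where Krt5 was at 0.

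In the F0 males Thbs1, of the latency and activation list, and Pmepa1, of the inhibitors, rose on the LPD, while none of the 9 members passed the test. Thbs1, thrombospondin 1, which can release active ligand from its latent complex, was read at 21.9 and 21.4 CPM against 47.3 and 74.0 CPM and rose 2.79-fold (log2 1.48, SE 0.19, adjusted p = 0.011). Pmepa1, a membrane protein that binds Smads and limits the signal, was read at 123 and 77.5 CPM against 289 and 501 CPM and rose 3.95-fold (log2 1.98, SE 0.27, adjusted p = 0.0128). In both genes, as in 46.5% of all genes tested, the F0 groups did not overlap. The 2 LPD mice stood above the CD mice, and F0-LPD replicate 2 was the higher of the pair.

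Intron reads of Pmepa1 rose too, by 1.31 (adjusted p = 0.0236), while those of Thbs1 differed by 1.41 (adjusted p = 0.0601). The other genes that rose in F0 were the cell cycle inhibitor Cdkn1a (1.17), the protease Adam12 (1.34), the CCN family member Cyr61 (0.83), the Smad corepressor Skil (0.44), the activin receptor Acvr1b (0.71) and the BMP target Id3 (0.45). Those that fell were the matrix protein Tgfbi (-0.56), the latent TGF-beta binding proteins Ltbp4 (-0.45) and Ltbp1 (-0.42), and the BMP family ligand Gdf10 (-0.53). Thus members of the latency list moved in both directions, and of 23 targets tested 2 rose and 1 fell, with a median of 0.05. Neither the 9 receptor partners nor the 6 other Smad proteins held a gene that passed; their largest differences were Acvr1 (0.49, adjusted p = 0.0566) and Smad9 (-1.09). Intron reads of Acvr1 went the other way and fell by 0.86 (adjusted p = 0.00131). Those of Acvr1b were also below 0, at -0.25, and did not pass (adjusted p = 0.277).

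Thbs1 and Pmepa1 kept their calls in 4 of 4 fits without 1 mouse, Adam12 in 3, Cdkn1a, Cyr61 and Acvr1b in 2, Tgfbi in 1, and Skil, Id3, Ltbp1, Ltbp4 and Gdf10 in none. Both Thbs1 and Pmepa1 lost the call with limma on log2 RPKM, with 0.1 or 1 added (adjusted p up to 0.0752 and 0.0699). The F0 count of 8 higher genes was 2 without F0-LPD replicate 2, 4 without F0-CD replicate 1, 5 without F0-CD replicate 2 and 14 without F0-LPD replicate 1, and 1 or 0 with limma on log2 RPKM, and that of 4 lower genes was 1 without F0-CD replicate 1, F0-CD replicate 2 or F0-LPD replicate 1 and 0 without F0-LPD replicate 2. Skeletal muscle markers were lower on the LPD in these mice (10 of 10 below 0, 5 called, none at 0, summed levels above). The summed levels of 3 other marker lists were also separated between the F0 groups, as were 46.5% of all single genes tested. Those of the adipocyte, fibroblast and progenitor, endothelial and epithelial lists overlapped. Macrophage markers summed to 777 to 815 CPM on the CD and 668 to 688 CPM on the LPD (6 of 8 below 0, 1 called). Smooth muscle and pericyte markers summed to 547 to 585 CPM against 480 to 497 CPM (4 of 6 below 0, 1 called), and lymphocyte markers to 331 to 385 CPM against 397 to 441 CPM (6 of 8 above 0, 1 called). None of the markers of the 4 separated lists was at 0 in a whole group, and the part of these lists in the F0 differences was not tested.

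**Figure D4:**
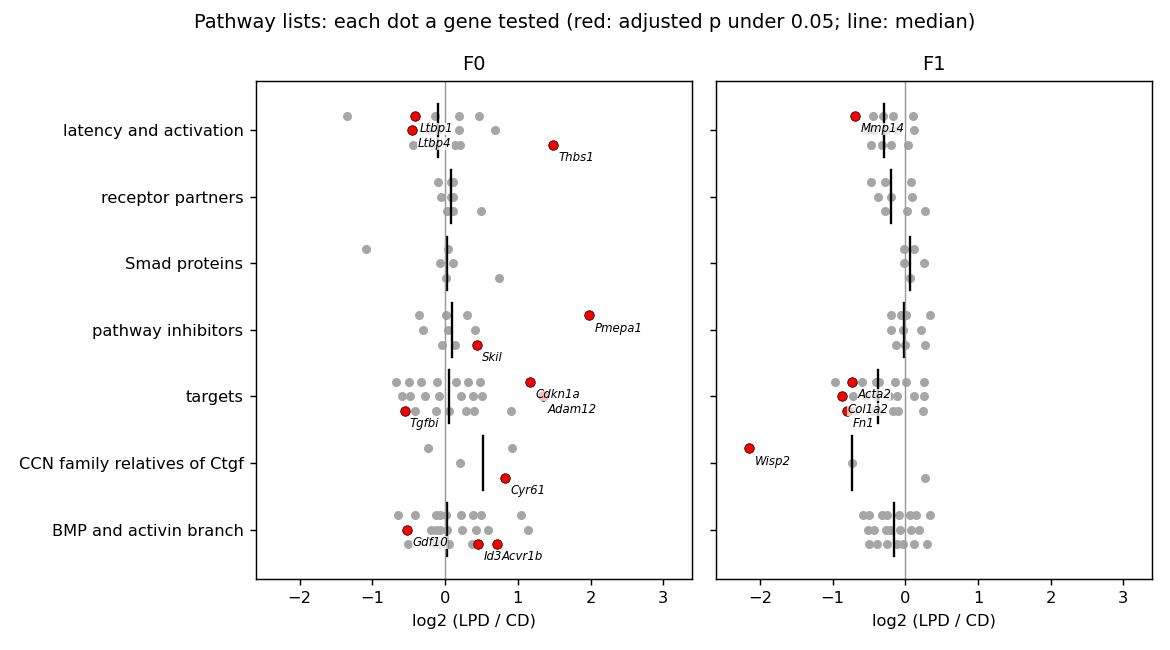
Fitted log2 ratio of LPD to CD (x axis) for each gene tested in 7 pathway lists (y axis), in F0 (left) and F1 (right). Red dots have an adjusted p under 0.05 and are named, and the line is the median of the list, -0.37 for targets in F1 and 0.05 in F0.

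The diet effect differed between the generations for 6 of the 95 pathway genes tested, all in the direction of a lower effect in F1, beside 1.25% of all genes. They were Wisp2, Thbs1, Cyr61, Adam12, Bgn and Ltbp3. Cyr61 was read at 13.9 and 15.6 CPM in F0-CD and 26.2 and 26.3 CPM in F0-LPD, but at 14.4, 13.2 and 16.5 CPM in F1-CD and 10.4, 7.19 and 8.73 CPM in F1-LPD. Its F0 groups and its F1 groups were thus separated in opposite directions, and the interaction was -1.58 (adjusted p = 0.00858). The F0 difference passed and the F1 difference, -0.74 (adjusted p = 0.0816), did not.

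**Figure D5:**
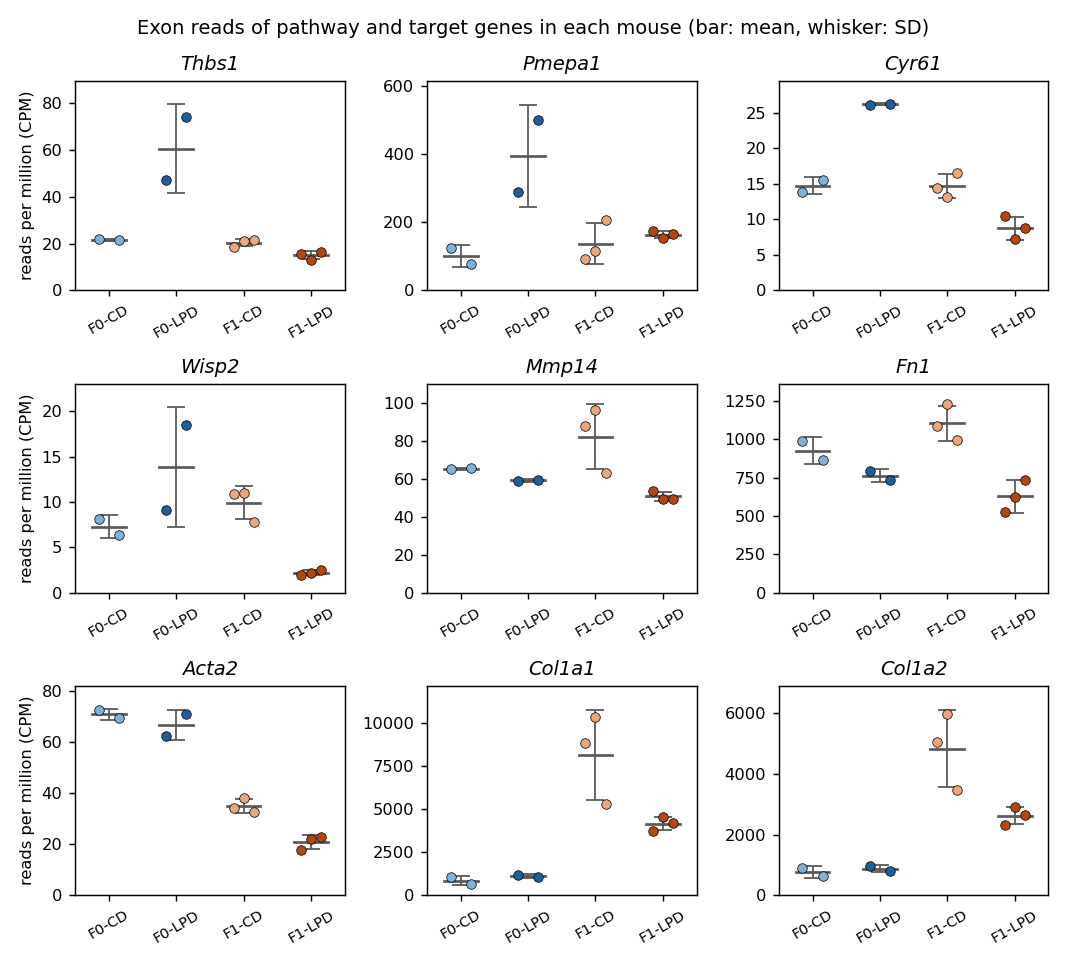
Exon reads (y axis, CPM, from 0) of 9 pathway and target genes in each mouse (points), by group (x axis), with mean (bar) and SD (whisker). Thbs1, Pmepa1 and Cyr61 are higher in both F0-LPD mice than in both F0-CD mice, and Wisp2, Mmp14, Fn1, Acta2, Col1a1 and Col1a2 are lower in all F1-LPD mice than in all F1-CD mice.

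On the CD, collagen genes differed between the generations by more than any member: Col1a1 was 9.62-fold and Col1a2 6.36-fold higher in F1-CD than in F0-CD (adjusted p = 1.46e-05 and 1.62e-05), while Acta2 was at 0.493 of the F0-CD level (adjusted p = 7.25e-05).

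Likeness of pattern was measured over 10 libraries and 13870 genes as the root mean square difference of log2 (CPM + 0.5), centred within each generation. The gene nearest to Tgfb3 was Npr1 (0.0723, beside 0.246 for Tgfb3 against a flat line), followed by the macrophage growth factor receptor Csf1r (0.0868). The nearest to Tgfbr2 were Got2 (0.0466) and Pck2 (0.0528), and to Ctgf, at a larger distance, Nt5e (0.164) and Clec3b (0.177). The nearest to the other members were Fbrs for Tgfb1, Zfat for Tgfb2, Cdc42bpa for Tgfbr1, Btbd2 for Tgfbr3, Tox4 for Smad3 and Krba1 for Smad7.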

How the data were processed

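Total RNA of iWAT was depleted of ribosomal RNA, made into strand-marking libraries and sequenced in pairs of 36 bases, and the authors aligned them to mm10 with CLC Genomics Workbench. Each mouse has a deposited table of genes with counts of total, unique and intron reads, and with RPKM and TPM computed by the authors from the same counts. The counting setting for strand is not given in the sources used here, so reads of a gene and of an antisense neighbour may be mixed. The deposited counts of total exon reads were tested with edgeR 4.0.16 (R 4.3.3): filterByExpr on the groups fitted, TMM, quasi-likelihood F test and Benjamini-Hochberg adjustment over all genes tested, with a threshold of 0.05. F1 and F0 were fitted separately. The interaction and the generation difference came from 1 fit of all 10 libraries, and they share groups with the other comparisons. Intron reads were fitted in the same way. The standard error is the difference divided by the root of F. CPM use TMM over all 10 libraries and RPKM serve only for levels.

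Alternatives were DESeq2 1.42.0, its size factors, edgeR's likelihood ratio test, other filters (none, or 10 reads in every sample), unique and whole-gene reads, limma 3.58.1 on log2 RPKM with 0.1 or 1 added, all groups in 1 fit, exon share as a covariate, the replicate number as a block, and leaving out each mouse. An item of the lists and a sequence are not reported here. Scripts were tested on simulated data. The members and the lists were chosen with earlier results of these data known. The genes named are the members, from each pathway list those past the threshold in F1 or F0 (at most 4 by p) and the one with the largest difference in each, and the genes nearest in pattern to each member (2 found for each, 1 printed for some); Bgn and Ltbp3 are named as results of the interaction, after their values were seen. Replicate numbers did not pair the mice: the deviations of same-numbered mice correlated at 0.0263, -0.00881 and 0.00578 in F1 and at 0.0479 in F0. Sequences came from GENCODE vM21 and RefSeq, gene positions from the deposited tables, which match GENCODE vM21.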

Additional observations from a re-analysis of the deposited data

Results flagged for a closer look

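The diet effect differed between F1 and F0 by the test of the difference itself for 6 pathway genes outside the 9 members (edgeR interaction, adjusted p under 0.05, F1 effect less F0 effect, log2). The interaction was -3.07 for Wisp2, -1.94 for Thbs1, -1.58 for Cyr61, -1.33 for Adam12, -0.88 for Bgn, which encodes the matrix proteoglycan biglycan, and -0.83 for Ltbp3, a latent TGF-beta binding protein. Thbs1 and Cyr61 kept the call in 10 of 10 fits without 1 mouse and Wisp2 in 9, while Adam12 kept it in 4, Bgn in 3 and Ltbp3 in 2. On intron reads none of the 6 passed. The introns of Thbs1, Cyr61 and Wisp2 held 11 to 37, 16 to 51 and 2 to 56 reads a library, which limits that test. Those of Adam12 held 1493 to 2603. The F1 and F0 mice differed in age and in whether they or their fathers ate the LPD, and these cannot be told apart.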

How the results depend on the processing

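Counts of members called stayed within 1.5 times under the alternatives not named here. In F1, where none of the 9 members passed as reported, 2 were called lower (Tgfb3 and Tgfbr2) under the likelihood ratio test, without the filter and with all groups in 1 fit, and 1 (Tgfbr2) under DESeq2; the lowest and highest counts without 1 mouse were both 0. For the generation difference, 1 member higher and 2 lower became 2 higher with the replicate block, 4 lower under the likelihood ratio test and without the filter, and 2 higher and 1 lower on intron reads; without 1 mouse the counts ran from 0 to 2 higher and from 1 to 3 lower. On intron reads 1 member (Tgfbr3) was higher in the interaction, and with the replicate block 1 (Smad3) was higher in F0. Of pathway genes, the F1 count of 5 lower became 14 (likelihood ratio), 10 (DESeq2), 16 (no filter), 3 (whole-gene reads), 8 (replicate block), 11 (all groups) and 0 (exon share), and 1 to 11 without 1 mouse, with 0 to 2 higher. The F0 count of 8 higher became 17, 20 and 21 (likelihood ratio, no filter, replicate block), 5 (whole-gene reads) and 1 and 0 (limma, 0.1 and 1 added), and 2 to 14 without 1 mouse; that of 4 lower became 8, 8 and 9 in the same 3 and 1, 0, 0 and 1 (DESeq2, both limma fits, all groups), and 0 to 1 without 1 mouse in every case. Over all genes the count of calls ranged from 11 (exon share) to 798 (no filter) around 164 in F1, and from 47 (limma, 1 added) to 1391 (replicate block) around 364 in F0, from 19 to 890 around 189 for the interaction, from 793 to 3415 around 2857 for the generation difference, and on intron reads from 5 to 190 around 57 in F1 and from 289 to 964 around 499 in F0. For single members in the generation difference, 15 of 170 alternative values gained a call and 6 lost one. Differences near 0 changed sign. In F1 Tgfb2 ranged from -0.27 to 0.22 over the fits without 1 mouse, above 0 without F1-CD replicate 2 (0.11) or F1-LPD replicate 2, whole-gene reads gave 0.027 for Tgfbr1 and 0.077 for Tgfbr3, the exon share gave 0.075 for Tgfbr3 and -0.078 for Smad3, and limma (0.1 and 1 added) gave -0.041 and -0.033 for Smad3 and -0.021 and -0.018 for Smad7. In F0 limma gave -0.0046 and -0.0042 for Tgfb1, fits without 1 mouse ranged from -0.055 to 0.16 for Tgfb1, -0.039 to 0.16 for Tgfbr1, -0.17 to 0.13 for Tgfbr3 and -0.21 to 0.13 for Smad7, and whole-gene reads gave 0.19 for Smad3, 0.072 for Smad7 and -0.50 for Acvr1. For the generation difference Tgfb1 was 0.018 on whole-gene and 0.23 on intron reads, Tgfbr2 -0.071 on intron reads, and Smad3 0.24 and 0.44 on whole-gene and intron reads. In the interaction Tgfbr2 was 0.066 and 0.25, and Smad3 -0.15 and -0.34, on whole-gene and intron reads. The cause of these changes was not tested, beyond that whole-gene reads add introns. TPM and CPM per kb left every member at its place in the order of levels. Depth limits Tgfb2 and Ctgf most.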
